A study of Mus musculus with 30 samples.

Results

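Hearts of S55L mice, which carry the p.S55L mutation in CHCHD10, a small protein of the mitochondrial intermembrane space, were compared on the day of delivery between dams fed EH301 diet and dams fed control diet. EH301 is a combination of nicotinamide riboside, a precursor of the coenzyme NAD, and pterostilbene, a plant stilbenoid. The comparison took the samples titled for these 2 diets, 4 libraries on the control diet (numbered 1 to 4) and 4 on EH301 (numbered 7 to 10), which are 8 of the 10 samples deposited for the diets and of the 30 samples of the whole series. Control diet 5 and EH301 diet 6 held identical counts in every gene, so the diet of that library is unknown and both were left out.

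All 8 libraries share the S55L genotype, breeding and the time of collection, postpartum day 0, and the diets were given during breeding. No wild-type or naive group on either diet is among the samples analysed here, so the diet comparison has no healthy reference of its own. The labels give breeding at 65 days for the WT and S55L mice of the separate postpartum libraries, and no age for the dams on the diets. They do not give the dose of EH301, how long it was fed before mating, the strain or the zygosity. Whether the libraries come from different mice is not stated, and the p-values then reflect only library-to-library spread, which may be technical. Heart RNA was sequenced from the 3′ end of polyadenylated transcripts. For scale, genes were also sorted by genotype in the separate postpartum libraries of the same series: wild-type (WT) and S55L mice, either naive at 100 days or postpartum (PP) at day 0, none of which is used in the diet comparison.

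NAD accepts electrons from fuel oxidation and passes them to complex I, and it is also consumed by sirtuins, by poly(ADP-ribose) polymerases and by CD38. Nicotinamide riboside enters the NAD pool after phosphorylation by the kinases NMRK1 and NMRK2, the latter enriched in striated muscle, while NAMPT recycles the nicotinamide that the consumers release. Mitochondrial damage in the heart is known to engage the integrated stress response, in which the transcription factor ATF4 drives amino acid, serine and one-carbon synthesis and the secreted factors GDF15 and FGF21, and pterostilbene has been studied as an antioxidant that acts through the transcription factor NRF2.

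Depth differed between the libraries. The control libraries held 466651, 2725771, 2982870 and 2551771 reads on genes, and the EH301 libraries 2887745, 1141997, 3048461 and 2628071. The shallowest library of each diet, control diet 1 with 466651 reads and EH301 diet 8 with 1141997 reads, stood apart, and the other 6 held at least 2551771 reads. A read in control diet 1 was worth 2.22 CPM (CPM are counts scaled to the library's reads on tested genes and its TMM factor), against 0.318 to 0.973 in the other 7. The first principal component of log2 CPM, with 60.2% of the variance, placed control diet 1 at -101 and EH301 diet 8 at -28.2, and the other 6 libraries between 4.53 and 31.7. The median correlation of a library with the other 7 was 0.804 for control diet 1, 0.898 for EH301 diet 8 and between 0.953 and 0.960 for the rest. By the well names in the table's column headers, all EH301 libraries lay in plate column 3 and the control libraries in columns 1 and 2, so plate column and diet cannot be told apart.

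**Figure D1:**
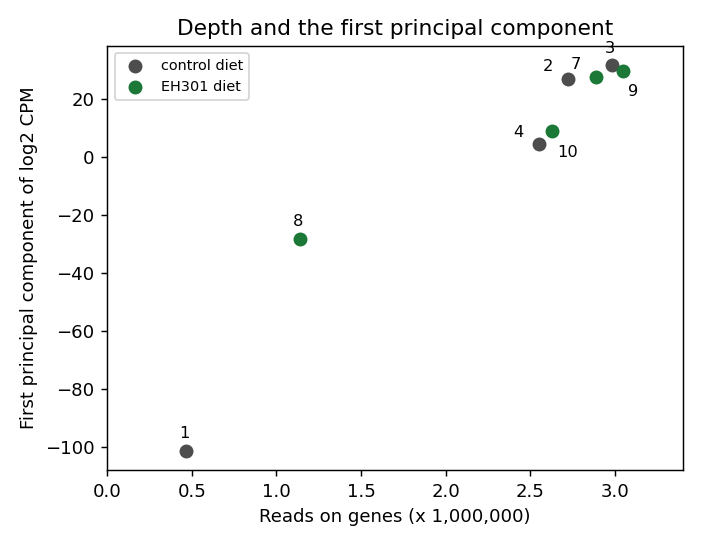
Each point is 1 library, labelled with its number. The horizontal axis gives its reads on genes and the vertical axis its first principal component of log2 CPM; control diet 1 and EH301 diet 8 lie apart from the other 6 libraries and carry the fewest reads.

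No gene was called different between the diets. Of 10335 genes tested with edgeR's quasi-likelihood test, 0 (0%) had a Benjamini-Hochberg adjusted p below 0.05 and the lowest adjusted p was 0.9999. At an unadjusted p below 0.05 there were 137 genes, 1.33% of those tested, 87 of them higher and 50 lower on EH301. That share was below the fraction of 0.05 that a calibrated test gives in the absence of any difference, so no excess was seen. The 4 libraries of one diet lay entirely above or below those of the other for 155 genes (1.5%). DESeq2, run without a filter on low counts, gave 20963 genes an adjusted p. It also called 0 genes, with 111 at an unadjusted p below 0.05, a count over more genes than the 10335 of edgeR. Limma voom with library quality weights, under the same filter as edgeR, called 1, Pfdn6, with 463 at an unadjusted p below 0.05. The median log2 fold change over all genes was 0.02. The precision was moderate: the 95% interval of the diet difference lay within 2-fold either way for 6939 genes (67.1%), and its median half-width was 0.68 on the log2 scale. The biological coefficient of variation was 0.299, against 0.199 in the postpartum libraries.

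Without the 2 shallow libraries, an alternative chosen after seeing the data, 3 libraries a diet were left and the coefficient of variation was 0.188. EdgeR still called 0 of 10554 genes tested, with 456 at an unadjusted p below 0.05 and a lowest adjusted p of 0.199. DESeq2 then called 9 genes and limma voom 1, and they are described with the genes of lowest p. Every gene named below had an adjusted p of 1 after rounding in the edgeR fit of the 8 libraries unless stated, so values and intervals are given in place of calls. Library values are listed in the order control diet 1 to 4 and EH301 diet 7 to 10, and fold changes are EH301 over control diet.

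The genes nearest to EH301 itself are those that make and use NAD. Of 33 listed genes of NAD metabolism, 20 were abundant enough to test. None was called, 11 had positive and 9 negative log2 fold changes, and their median was 0.04 against 0.02 over all genes. For 15 of the 20 the interval lay within 2-fold either way.

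Nmrk2, the muscle nicotinamide riboside kinase, had the lowest unadjusted p of the list, 0.0803. Its level was 236, 189, 175 and 165 CPM on the control diet and 171, 119, 125 and 139 CPM on EH301. EH301 diets 8, 9 and 10 lay below every control library, and EH301 diet 7 lay above control diet 4, so the groups overlapped. The means were 191 ± 31.2 CPM (SD, n = 4) on the control diet and 139 ± 23.4 CPM (SD, n = 4) on EH301, with a log2 fold change of -0.46 (SE 0.24, 95% interval -0.98 to 0.06). In the postpartum libraries, Nmrk2 was higher in S55L PP than in WT PP by 3.42 (SE 0.61) on the log2 scale, with an adjusted p of 0.000568 in edgeR.

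Nmrk1, the broadly expressed kinase for the same substrate, was counted at 4.45, 6.04, 8.65 and 7.13 CPM on the control diet and 3.81, 10.7, 8.92 and 8.94 CPM on EH301. EH301 diets 8, 9 and 10 lay above every control library and EH301 diet 7 lay below them all, and the interval of its log2 fold change was -0.62 to 0.92. Nampt, which makes nicotinamide mononucleotide from recycled nicotinamide, was at 37.8, 29.8, 38.3 and 27.0 CPM on the control diet and 37.0, 21.4, 42.0 and 35.8 CPM on EH301. Its lowest library was EH301 diet 8 and its highest EH301 diet 9, with a log2 fold change of 0.08 (SE 0.25, 95% interval -0.46 to 0.62).

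Nnmt, which methylates nicotinamide and so removes it from salvage, was at 4.45, 5.28, 5.32 and 4.50 CPM on the control diet and 4.84, 6.81, 5.73 and 8.57 CPM on EH301. EH301 diets 8, 9 and 10 were above all control libraries and EH301 diet 7 was not, and the interval was -0.31 to 1.03. Among the NAD-dependent deacylases, Sirt3, the mitochondrial one, was at 13.3, 22.3, 18.6 and 22.9 CPM on the control diet and 17.99, 27.2, 16.6 and 15.6 CPM on EH301, and Sirt1, a nuclear one, at 2.22, 6.04, 8.98 and 5.25 CPM on the control diet and 6.57, 6.81, 5.41 and 7.82 CPM on EH301. Neither separated the diets. Their intervals were -0.66 to 0.46 for Sirt3 and -0.67 to 0.78 for Sirt1. Nadk, the cytosolic NAD kinase, had the lowest log2 fold change of the list, -0.47. Its level was 84.5, 20.4, 19.6 and 16.5 CPM on the control diet and 12.8, 29.2, 19.4 and 25.3 CPM on EH301, so that difference came with control diet 1, whose value lay far above the other 7. Nnt, the transhydrogenase that links NADH to NADPH in mitochondria, was listed at 0 in all 8 libraries, as were further genes named below. The cause of that 0 was not tested.

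In the integrated stress response, several regulators and secreted factors spread widely between libraries within each diet. The mean over the list lay between -0.25 and 0.01 in the control libraries and between -0.11 and 0.38 in the EH301 libraries, as log2 differences from the average of the 8 libraries. That mean was -0.07 in control diet 1, below the average, and 0.38 in EH301 diet 8. Atf4, the central transcription factor of the response, was at 2836, 639.8, 702 and 1070.4 CPM on the control diet and 828, 2331, 904 and 912 CPM on EH301. Control diet 1 and EH301 diet 8 lay far above the other 6, and those 6 overlapped between the diets. The log2 fold change was -0.07 with an interval of -1.18 to 1.04; without control diet 1 it was 0.63, and without EH301 diet 8 it was -0.58.

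Ddit3, the stress-induced factor CHOP, followed the same order, at 1288, 105, 119 and 234 CPM on the control diet and 149.8, 543, 176 and 213 CPM on EH301. The 2 shallow libraries were again the highest of their diet. Its log2 fold change of -0.67 had an interval of -2.26 to 0.91, and it was 0.82 without control diet 1 and -1.26 without EH301 diet 8. Gdf15, the circulating mitokine, was at 2157, 490.0, 737 and 887 CPM on the control diet and 619.6, 1873, 669 and 814 CPM on EH301. Its 2 highest libraries were the same pair, and the other 6 ran from 490.0 to 887 CPM with both diets interleaved. The interval for Gdf15 was -1.16 to 0.96. The part that depth plays in these values was not tested.

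**Figure D2:**
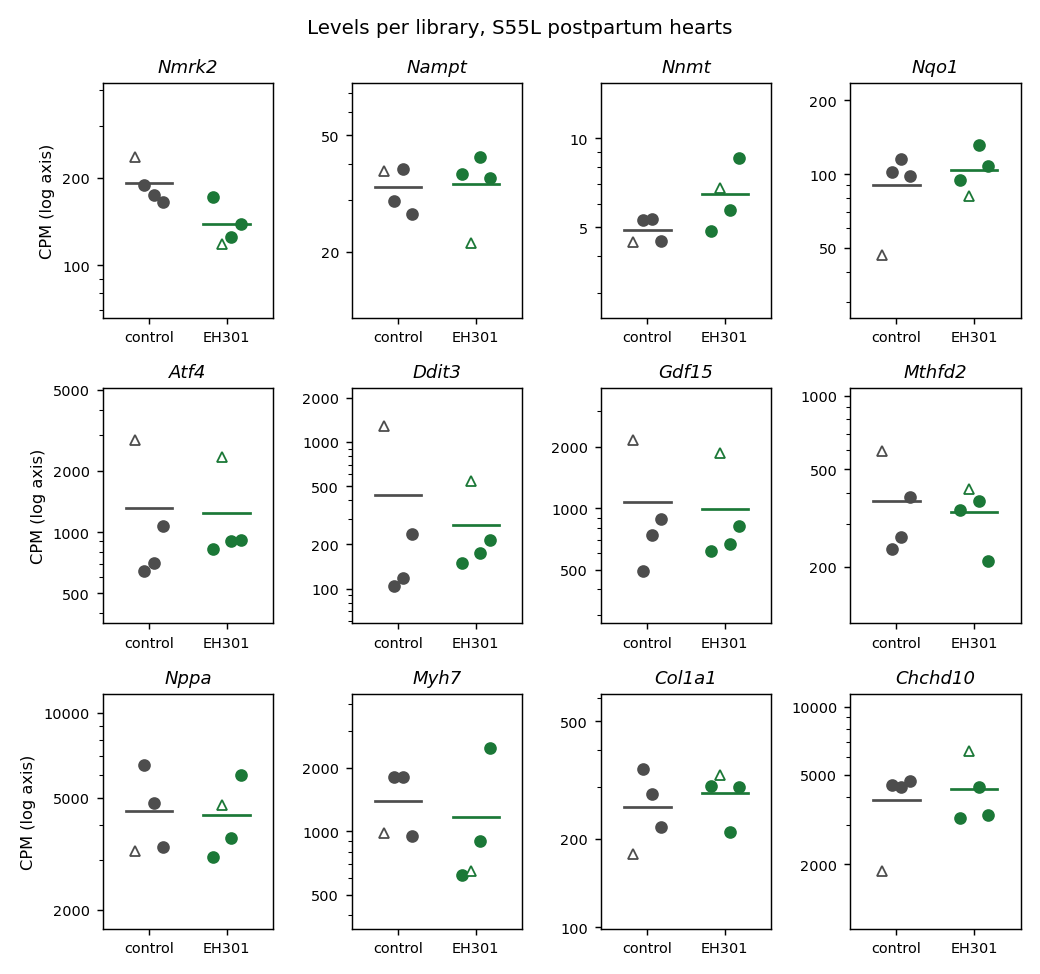
CPM of 12 panel genes on log axes, 1 point a library and a line at each diet's mean; open triangles mark control diet 1 and EH301 diet 8, the 2 libraries under 1200000 reads. The triangles are the highest points of both diets for Atf4, Ddit3, Gdf15 and Mthfd2, and the diets overlap in all 12 genes.

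Trib3, a pseudokinase induced by ATF4 and CHOP, was at 169, 48.3, 77.9 and 84.8 CPM on the control diet and 62.6, 139, 103 and 81.6 CPM on EH301, with an interval of -0.74 to 0.86. Its highest libraries were control diet 1 and EH301 diet 8. Fgf21, the other mitokine of this response, had 1 read in control diet 1 (2.22 CPM), and at most 0.973 CPM elsewhere, and was too low to test. In all, 31 of 34 listed genes of the response were tested and 0 were called. Of these, 22 had positive and 9 negative fold changes, with a median of 0.19. Over all 10335 genes 5546 were positive and 4789 negative. The median was 0.02 without EH301 diet 8, 0.39 without control diet 1 and 0.22 without both.

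The lowest unadjusted p of the list, 0.029, belonged to Slc7a11, the cystine importer, which was picked out after its values were seen. It was at 0, 2.26, 4.33 and 5.63 CPM on the control diet and 5.54, 6.81, 22.0 and 4.84 CPM on EH301. EH301 diet 9 held the highest value, at 22.0 CPM, and EH301 diets 7 and 10 lay below control diet 4. The log2 fold change was 1.43, with an interval of 0.17 to 2.69. Asns, which makes asparagine, was at 51.2, 74.7, 82.2 and 63.8 CPM on the control diet and 74.0, 115, 103 and 70.01 CPM on EH301, and EH301 diets 8 and 9 were its highest libraries. Its interval was -0.16 to 0.93.

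Serine and one-carbon enzymes were tested for 17 of 20 listed genes. None was called, 12 were positive and 5 negative, and the median was 0.25, or 0.06 without the shallow libraries. Leaving out 1 library at a time, the median ranged from -0.11 without EH301 diet 8 to 0.42 without EH301 diet 10. Mthfd2, the mitochondrial folate enzyme, was at 596.1, 237, 264 and 386 CPM on the control diet and 341, 416, 369 and 211 CPM on EH301, and its highest and lowest libraries were control diet 1 and EH301 diet 10. Its diet interval was -0.89 to 0.60, beside a genotype difference of 6.01 (SE 0.27) in the postpartum libraries. Psat1, the aminotransferase of serine synthesis, was at 73.4, 49.5, 69.9 and 87.4 CPM on the control diet and 77.8, 141, 91.1 and 48.0 CPM on EH301. EH301 diet 8 was the highest and EH301 diet 10 the lowest, with an interval of -0.35 to 1.04. Phgdh, the first enzyme of that pathway, was low, at 11.1, 1.89, 3.99 and 1.5002 CPM on the control diet and 3.81, 2.92, 7.96 and 1.86 CPM on EH301. Its interval of -0.80 to 1.76 was wide, and control diet 1 was the highest library on 5 reads.

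For genes of the NRF2 response, 32 of 33 were tested, 0 were called, and the median was 0.08, with 22 positive and 10 negative. Nqo1, a quinone reductase and a standard NRF2 target, was at 46.7, 102, 115 and 98.3 CPM on the control diet and 94.1, 81.7, 131 and 108 CPM on EH301. Control diet 1 was the lowest and EH301 diet 9 the highest, and the other 6 interleaved. The diet difference was a log2 fold change of 0.17 (SE 0.28, 95% interval -0.45 to 0.78), beside a genotype difference of 2.96 (SE 0.20). Hmox1, heme oxygenase 1, was at 57.8, 10.6, 13.3 and 18.8 CPM on the control diet and 15.9, 54.5, 20.7 and 23.1 CPM on EH301. Here control diet 1 and EH301 diet 8 were the highest libraries by far. The interval for Hmox1 was -0.71 to 1.53. The lowest unadjusted p of the list, 0.0541, was that of Osgin1, whose level was 11.1, 8.30, 4.33 and 6.001 CPM on the control diet and 11.8, 14.6, 8.92 and 9.31 CPM on EH301. Its control diet 1 and EH301 diets 7 and 8 were the 3 highest libraries, so the groups overlapped.

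The aryl hydrocarbon receptor, a sensor of aromatic compounds whose usual target is Cyp1a1, had 2 of its 9 listed targets tested, Nqo1 and Tiparp, and neither was called. Cyp1a1 did not exceed 0.637 CPM in any library. In the endoplasmic reticulum's own unfolded protein response, 20 of 22 genes were tested, 0 were called, 17 were positive and 3 negative, and the median was 0.20. The mean over this list in control diet 1 was 0.81 below its average on the log2 scale, the lowest of the 8 libraries. In EH301 diet 7 it was 0.41 above, the highest. Without the shallow libraries the list's median was 0.12. Leaving out 1 library at a time, that median ranged from 0.08 without EH301 diet 7 to 0.23 without EH301 diet 8. Hspa5, the main chaperone of that compartment, was at 614, 642, 659 and 776 CPM on the control diet and 703, 899, 600.3 and 644 CPM on EH301, with an interval of -0.49 to 0.65. Heat shock genes had a median of 0.02 over 16 tested, and mitochondrial proteases and chaperones 0.10 over 17, with 0 called in either list.

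Genes of cardiac stress and growth were tested for 18 of 23 listed, 0 were called, and 5 were positive and 13 negative with a median of -0.05. Nppa, the atrial natriuretic peptide, was at 3232, 6498, 4778 and 3348 CPM on the control diet and 3073, 4714, 3583 and 6027 CPM on EH301. Both diets spread from about the same low to about the same high value, with means of 4464 ± 1528 CPM (SD, n = 4) on the control diet and 4349 ± 1312 CPM (SD, n = 4) on EH301. The interval was -0.80 to 0.73.

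Nppb, the brain natriuretic peptide, was at 480.4, 91.4, 40.3 and 111 CPM on the control diet and 88.2, 189.7, 44.3 and 141 CPM on EH301. Control diet 1 and EH301 diet 8 were again the highest of their diets. Its interval was -2.02 to 0.82. Myh7, the slow myosin heavy chain that returns in the failing mouse heart, was at 988, 1807, 1812 and 951 CPM on the control diet and 622, 649, 904 and 2494 CPM on EH301. EH301 diet 10 held the highest value and EH301 diets 7, 8 and 9 held the lowest 3, so the EH301 group spanned the control group. The log2 fold change was -0.25 over all 8 libraries and -0.94 without EH301 diet 10.

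Myh6, the adult fast myosin, was at 5104, 7288, 4761 and 7163 CPM on the control diet and 8031, 7464, 7264 and 7316 CPM on EH301. The EH301 libraries lay close together, near the upper control libraries, and the interval was -0.35 to 0.96. Acta1, skeletal actin, was at 423, 463, 332 and 432 CPM on the control diet and 448, 540.0, 511 and 532 CPM on EH301, where control diet 2 was above EH301 diet 7. Ankrd1, a stretch-responsive protein of the sarcomere and nucleus, was at 3307, 6577, 8341 and 4035 CPM on the control diet and 6096, 2004, 6215 and 4452 CPM on EH301, where EH301 diet 8 was the lowest library. The intervals were -0.24 to 0.84 for Acta1 and -1.17 to 0.68 for Ankrd1.

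Of the adult sarcomere list all 21 genes were tested, 0 were called, and the median was 0.05. Calcium handling and conduction genes had a median of -0.09 over 20 tested. In the extracellular matrix list 41 of 42 were tested, 0 were called, and the median was -0.02, with 16 positive and 25 negative. Col1a1, the main chain of type I collagen, was at 178, 344, 284 and 219 CPM on the control diet and 301, 329, 211 and 299.8 CPM on EH301, and Col3a1, of type III collagen, at 75.6, 212, 160.4 and 119 CPM on the control diet and 156, 75.9, 106 and 149 CPM on EH301. Postn, the matrix protein of activated fibroblasts, was at 8.90, 50.2, 38.6 and 25.9 CPM on the control diet and 55.7, 20.4, 29.3 and 39.1 CPM on EH301. Control diet 1 was the lowest library for all 3 genes, and their intervals were -0.46 to 0.76, -0.96 to 0.49 and -0.70 to 0.99.

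**Figure D3:**
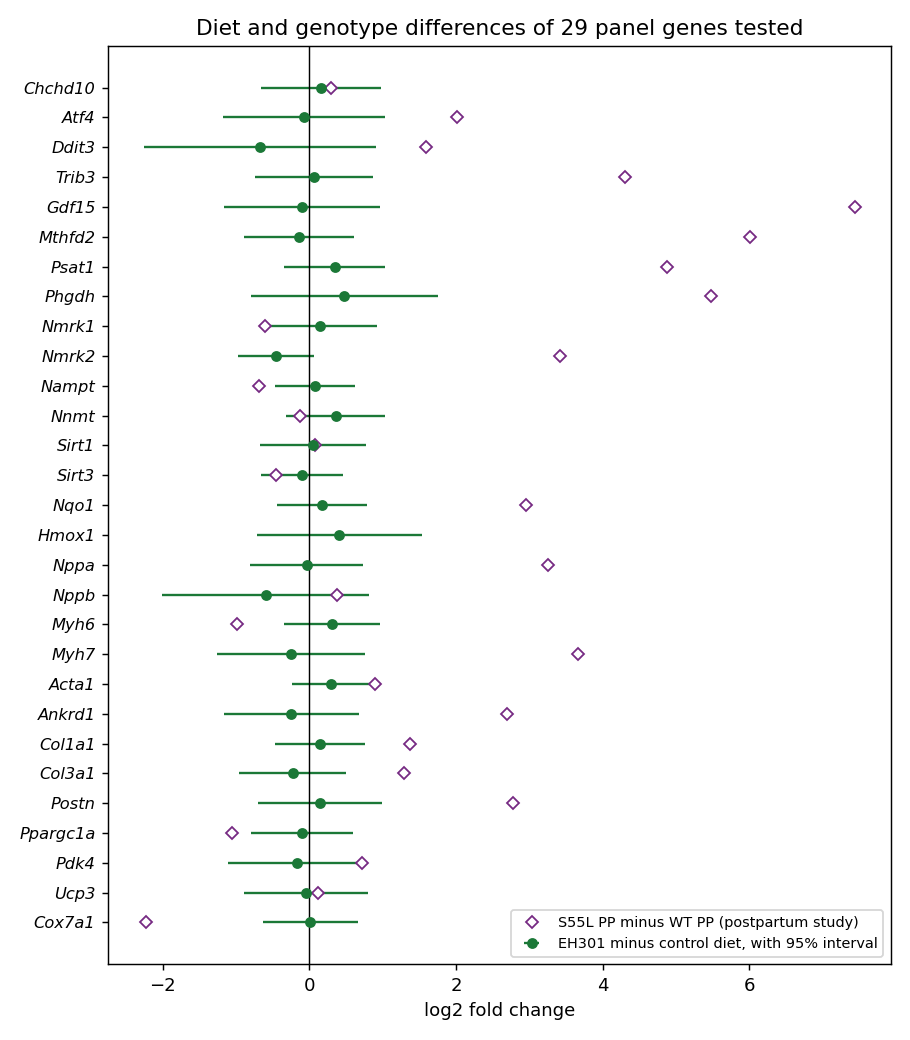
Log2 fold change by diet (filled circles, with 95% intervals, EH301 over control diet, 4 libraries each) and by genotype in the postpartum libraries (open diamonds, S55L PP over WT PP, no interval drawn) for the 29 panel genes tested and reported. Every diet interval includes 0, while the genotype values reach 7.44 for Gdf15 and 6.01 for Mthfd2; Hmox1 has no diamond because it was not tested there.

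Chchd10, the mutated gene, was at 1866, 4491, 4418 and 4683 CPM on the control diet and 3227, 6349, 4401 and 3308 CPM on EH301. Control diet 1 was the lowest library and EH301 diet 8 the highest, and the other 6 lay between 3227 and 4683 CPM. The interval was -0.66 to 0.98, and without the shallow libraries the log2 fold change was -0.33. These counts do not separate mutant from wild-type transcripts. Chchd2, its closest paralogue, was listed at 0 in all 8 libraries, as were Tuba1a and mt-Co3, whereas all 3 were tested in the postpartum table. Other listed genes at 0 in all 8 included Nnt, Cpt1b, Etfb, Ndufa13, mt-Nd3, mt-Nd4l, Ankrd23, Pfkfb2, Fdps and Per3. The medians of their lists leave these genes out. The cause of these zeros was not tested.

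Nuclear genes of the respiratory chain showed no call. Complex I had 33 of 36 genes tested with a median of -0.12, complexes II and III 13 with a median of 0.00, complex IV 15 with a median of -0.04, and the ATP synthase 14 with a median of -0.03. Without the shallow libraries the 4 medians were -0.17, -0.17, -0.23 and -0.12. Cox7a1, the heart and muscle isoform of a complex IV subunit, was at 527, 961, 717 and 815 CPM on the control diet and 555, 881, 658 and 959 CPM on EH301. The diets interleaved, with a log2 fold change of 0.01 and an interval of -0.64 to 0.66, beside a genotype difference of -2.23 (SE 0.16).

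Counted transcripts of the mitochondrial genome took 17.0% ± 7.11 (SD, n = 4) of reads on genes on the control diet and 19.6% ± 5.67 (SD, n = 4) on EH301. Of its 13 listed mRNAs, 7 were abundant enough to test and 0 were called. Among the untested, mt-Nd3, mt-Nd4l and mt-Co3 were at 0 in all 8 libraries, so the share leaves these 3 out. By library the share was 6.95%, 21.7%, 22.3% and 16.9% on the control diet, and 24.6%, 11.9%, 22.9% and 18.9% on EH301. The lowest library of each diet was its shallow one. The difference of 2.62 percentage points had an exact two-sided permutation p of 0.571, where the smallest p that 70 regroupings allow is 0.0286, and without control diet 1 the difference was -0.73. Among the mRNAs, mt-Nd2, a complex I subunit picked out after its values were seen, was at 4515, 10698, 10694 and 9290.2 CPM on the control diet and 42841, 8766, 14669.9 and 12694 CPM on EH301. EH301 diet 7 held the highest value by far.

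No gene of fuel use was called either. Fatty acid uptake and beta-oxidation had 27 of 30 genes tested with a median of 0.01, and PPAR targets and uncoupling genes 17 of 20 with a median of -0.04. Ppargc1a, the coactivator of mitochondrial biogenesis, was at 68.9, 75.9, 47.2 and 47.6 CPM on the control diet and 74.0, 23.4, 59.6 and 60.7 CPM on EH301. Pdk4, which restrains pyruvate oxidation, was at 46.7, 308, 143 and 171 CPM on the control diet and 143, 116, 218 and 125 CPM on EH301. Control diet 2 was the highest library for both genes. Their intervals were -0.80 to 0.60 and -1.11 to 0.77. Ucp3, an uncoupling protein of muscle, had an interval of -0.89 to 0.80. Cholesterol synthesis and lipogenesis genes, of which 12 of 21 were tested, had 11 negative and 1 positive fold changes with a median of -0.10. That median was -0.29 without EH301 diet 8 and -0.31 without both shallow libraries. The tricarboxylic acid cycle had 10 positive and 10 negative.

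**Figure D4:**
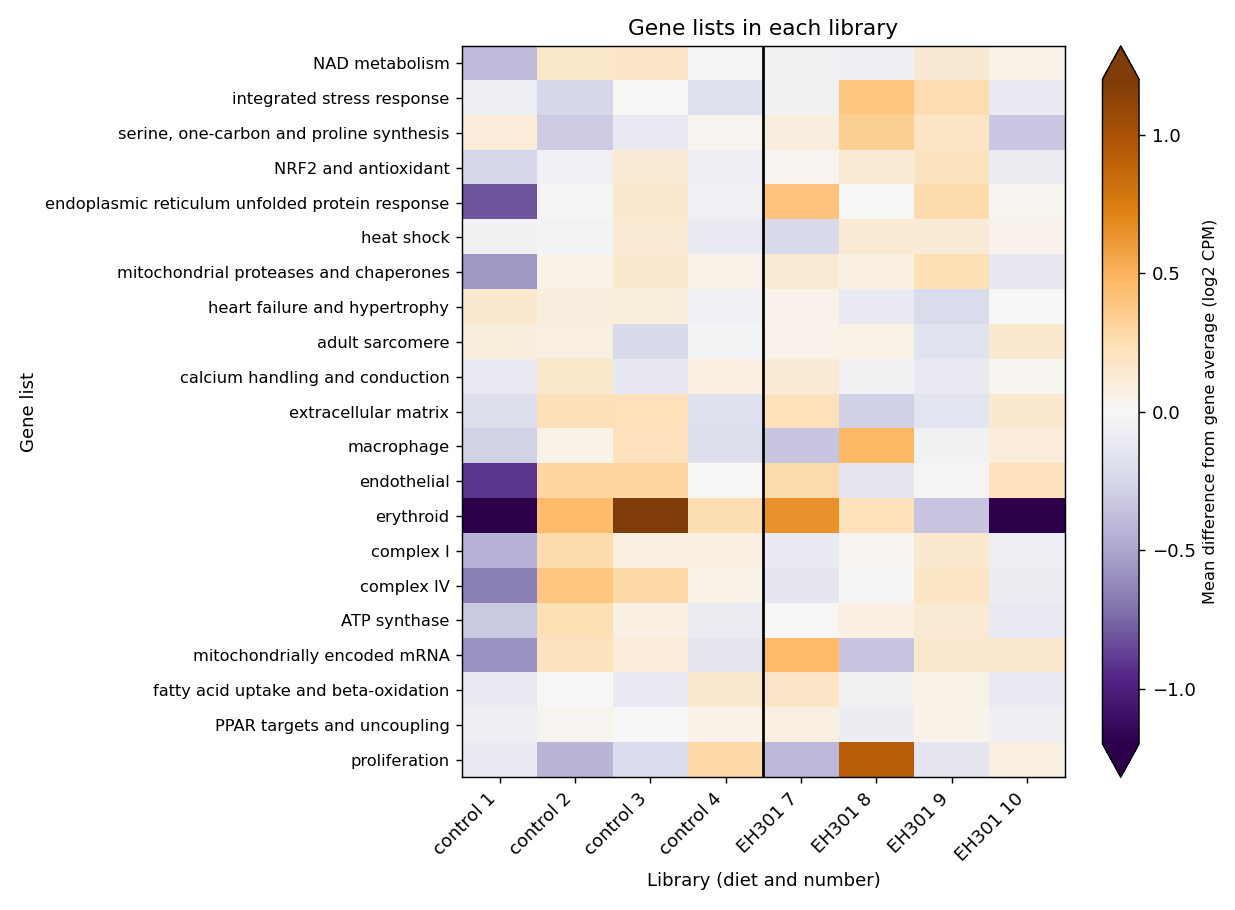
Mean difference of each list's tested genes from their average over the 8 libraries, in log2 CPM, with the diets divided by the black line; colours saturate at the ends of the scale. Control diet 1 is the lowest library for several lists, erythroid genes vary most, and in every list shown the values of the 2 diets overlap.

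Markers of cell types put heart muscle in every library. The 6 cardiomyocyte markers summed to between 19937 and 43392 CPM on the control diet and between 34428 and 41799 CPM on EH301, with control diet 1 the lowest. All 6 were tested and 0 called. Markers of other organs were low: thymus markers did not exceed 0.377 CPM in sum, lung markers 0.745 CPM, and liver markers reached 86.7 CPM at most. Endothelial markers, with Egfl7 at 0 throughout, summed to between 356 and 615 CPM on the control diet and between 485 and 571 CPM on EH301. Fibroblast markers had 5 of 6 tested and a median of 0.24. Of these Pdgfra, the receptor that marks resident fibroblasts, did not overlap between the diets, at 6.67, 8.68, 8.98 and 6.38 CPM on the control diet and 11.8, 9.73, 14.3 and 13.0 CPM on EH301. The gap, between control diet 3 and EH301 diet 8, was smaller than 1 read in EH301 diet 8, worth 0.973 CPM. In control diet 1, 1 read was worth 2.22 CPM. Genes whose libraries did not overlap with EH301 higher made up 0.929% of those tested. In such bulk tissue, fewer cells of a type and less RNA per cell cannot be told apart.

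Macrophage markers, all 7 tested, had a median of 0.01. Their sum was 4153, 1892, 1955 and 1849 CPM on the control diet, and 1234, 4892, 1570 and 2287 CPM on EH301. The 2 shallow libraries had the highest sums, which lay mostly in Csf1r, C1qa and C1qb. The other 4 markers, Adgre1, C1qc, Mrc1 and Fcgr1, were lowest in control diet 1, where the mean over the list was 0.28 below its average on the log2 scale. Fast skeletal muscle genes were also highest in the 2 shallow libraries: Actn3 was at 636, 3.02, 1.66 and 1.5002 CPM on the control diet and 0.346, 194, 7.96 and 0.745 CPM on EH301, and Myh4 at 222, 11.3, 3.33 and 15.0 CPM on the control diet and 5.19, 50.6, 13.4 and 9.68 CPM on EH301. Those transcripts are scarce in heart, and in the other 6 libraries neither exceeded 15.0 CPM. Erythroid genes varied most, with summed levels of 1088, 7028, 20674 and 5184 CPM on the control diet and 6840, 4403, 4106 and 1503 CPM on EH301. All 5 tested were negative with a median of -0.92 and 0 called, and control diet 3 held the highest sum. The median was -0.22 without control diet 3 and -1.35 without EH301 diet 7. Neutrophil markers, with Ly6g at 0 in all 8 libraries, had 2 of 5 tested and a median of -0.95.

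Genes that differ by genotype were then followed across the diets. In the postpartum libraries, 11945 genes were tested between S55L PP and WT PP, and edgeR called 3767 (31.5%), with 16.3% of all tested genes higher and 15.2% lower in S55L PP. Scaled by total counts, the split was 3458 higher and 977 lower. These libraries were counted and scaled apart from the diet libraries, so directions and sizes of fold changes are set side by side and levels are not. Of 9735 genes tested in both tables, 1293 were called by genotype with at least a 2-fold difference, 785 of them higher and 508 lower in S55L PP. By diet 0 of the 1293 were called (0% of all genes tested), 525 (40.6%) had a diet fold change in the direction of WT and 768 in the opposite direction. At an unadjusted p below 0.05 there were 5 toward and 14 away, beside 137 (1.33%) of all genes tested by diet. Among all 3135 genes called by genotype and tested in both tables, they were 15 toward and 23 away.

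The median diet log2 fold change was 0.06 for the genes higher in S55L PP and -0.06 for the genes lower in it, beside 0.02 for the 6600 genes not called by genotype. Without the shallow libraries 47.2% pointed toward WT. The width of the intervals sets what can be read from this. The diet libraries hold no WT group, so a return was judged against the genotype fold change of the postpartum libraries. For 1239 of the 1293 genes (95.8%) the diet interval excluded a full return by that measure, and for 787 (60.9%) it excluded a 50% return. These genes were taken for their large genotype difference, which makes a return easier to exclude. Over all 3135 genes called by genotype and tested in both tables, the shares were 73.8% and 32.8%. Gdf15, with a genotype difference of 7.44 (SE 0.56), had a diet interval from -1.16 to 0.96. Trib3 had a genotype difference of 4.31 (SE 0.37) and a diet interval of -0.74 to 0.86. For Myh7 they were 3.66 (SE 0.46) and -1.26 to 0.75, and for Nppa 3.25 (SE 0.61) and -0.80 to 0.73.

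As a description per library, the mean log2 CPM of those genes, signed so that positive is the S55L direction, was -0.14, -0.10, 0.10 and -0.03 on the control diet and 0.01, 0.15, 0.08 and -0.07 on EH301. The highest library was EH301 diet 8 and the lowest control diet 1, and the diets overlapped.

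The genes of lowest p were chosen after their values were seen, as the 12 lowest among genes of at least 10 CPM with a proper symbol. Pfdn6, a subunit of the prefoldin chaperone that hands unfolded actin and tubulin to the chaperonin, came first, with an unadjusted p of 0.00046. It was at 33.4, 17.0, 17.3 and 22.1 CPM on the control diet and 34.2, 58.4, 65.6 and 56.2 CPM on EH301. Every EH301 library lay above every control library, though EH301 diet 7 and control diet 1 differed by less than 1 CPM. The means were 22.4 ± 7.65 CPM (SD, n = 4) on the control diet and 53.6 ± 13.5 CPM (SD, n = 4) on EH301, with a log2 fold change of 1.35 (SE 0.29, 95% interval 0.73 to 1.97). In limma voom the log2 fold change was 1.55 with an adjusted p of 0.0401, and without the shallow libraries it was 1.57 with an adjusted p of 0.0363. Leaving out 1 library at a time, it ranged from 1.196 to 1.51 in edgeR and was not called.

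Mapk3, the kinase ERK1, was at 26.7, 67.6, 66.9 and 83.3 CPM on the control diet and 92.0, 121, 128 and 130.3 CPM on EH301. Its EH301 libraries were all above the control libraries, and control diet 1 was the lowest. Tgfb3, a ligand of the transforming growth factor beta family, was at 22.2, 17.7, 17.6 and 15.4 CPM on the control diet and 11.8, 11.7, 9.24 and 11.5 CPM on EH301. All EH301 libraries were below all control libraries, as for 0.571% of all genes tested. Its log2 fold change was -0.68, with an interval of -1.197 to -0.16 and an unadjusted p of 0.0139, and its genotype difference was 1.28 (SE 0.21). Polr3a, the largest subunit of RNA polymerase III, was at 20.02, 20.01, 17.3 and 19.9 CPM on the control diet and 14.9, 8.76, 10.5 and 9.68 CPM on EH301. It too did not overlap, and its interval was -1.31 to -0.24.

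For 3 of the 12, 1 EH301 library lay far above the other 3, and the difference was smaller without it. Cyp26b1, which degrades retinoic acid, was at 4.45, 8.30, 12.3 and 7.88 CPM on the control diet and 13.8, 19.5, 190.4 and 7.45 CPM on EH301, and without EH301 diet 9 its log2 fold change went from 2.71 to 0.48. Malat1, a nuclear long noncoding RNA, was at 409, 383, 479 and 411 CPM on the control diet and 2540.0, 495, 739.8 and 705 CPM on EH301, and without EH301 diet 7 its log2 fold change went from 1.41 to 0.61. The other EH301 libraries still lay above every control library for Malat1. EH301 diet 7 was also the highest library for mt-Rnr2, the large mitochondrial ribosomal RNA, which was at 2155, 1894, 2933 and 1907 CPM on the control diet and 14946, 2448, 4926 and 2603 CPM on EH301. Without that library its log2 fold change went from 1.49 to 0.56. The other 5 were Zw10 (0.80), Bicra (0.69), Tmem120b (0.76), Ankrd13b (-0.69) and Spg20 (0.60), given as log2 fold changes. Of these Tmem120b overlapped between the diets and the other 4 did not.

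**Figure D5:**
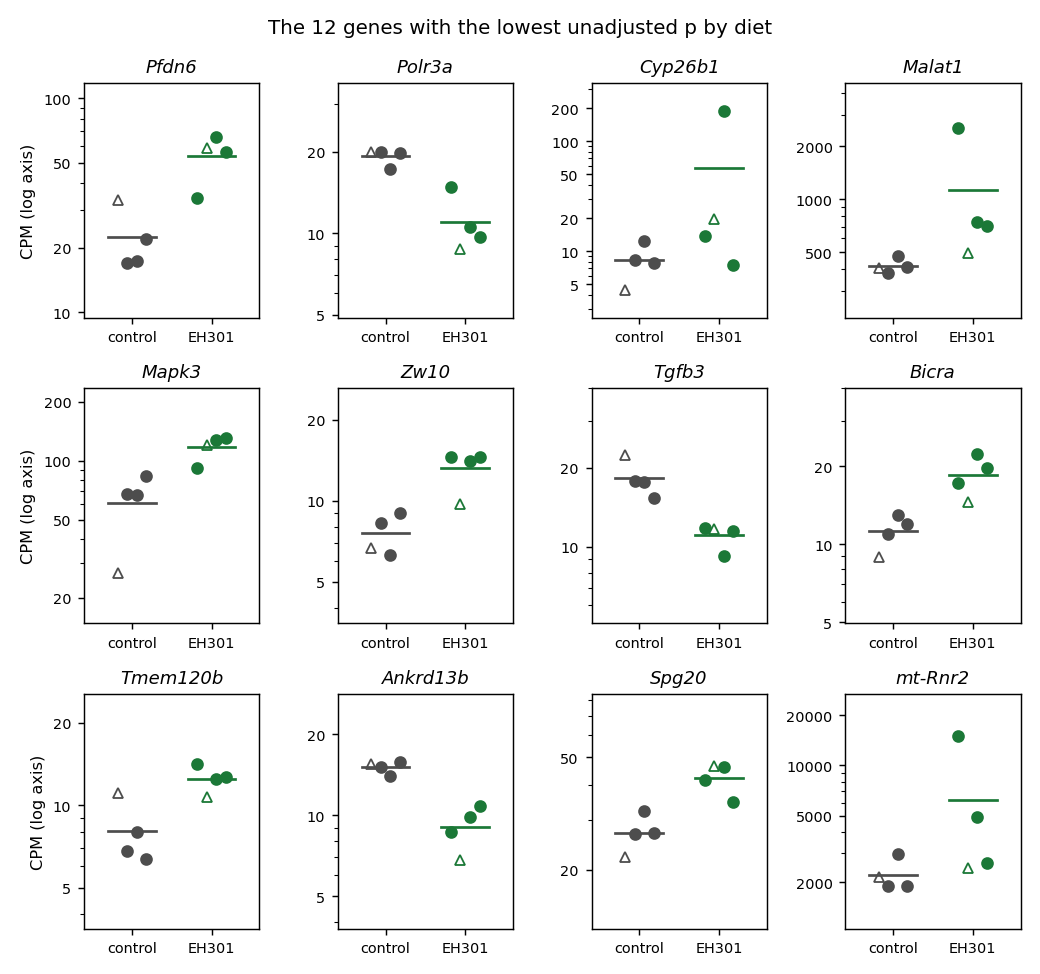
CPM on log axes of the 12 genes with the lowest unadjusted p, 1 point a library with a line at each diet's mean; open triangles mark the 2 libraries under 1200000 reads. Cyp26b1, Malat1 and mt-Rnr2 each have 1 EH301 library far above the other 3, and Pfdn6 separates the diets by a narrow gap.

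The 9 genes that DESeq2 called without the shallow libraries were likewise seen first and named after. Beside Pfdn6 (log2 fold change 1.46, adjusted p 0.00338), 5 were higher on EH301: Des, the intermediate filament desmin (1.25, adjusted p 0.00338), Stard10, a lipid transfer protein (1.95, 0.00439), Comp, a matrix protein (1.71, 0.0334), Trim54, a muscle ubiquitin ligase (1.15, 0.0381), and Resf1 (0.86, 0.0381). The other 3 were lower: Tufm, the mitochondrial translation elongation factor (-1.24, 0.0206), Dnajc4 (-0.93, 0.00439) and Eif4ebp2, an inhibitor of cap-dependent translation (-0.96, 0.0374). Des was at 867, 481, 333 and 432 CPM on the control diet and 582, 1110.2, 1170.0 and 1232 CPM on EH301. Its shallow control diet 1 lay above EH301 diet 7, and over all 8 libraries the interval was 0.17 to 1.75. That interval also excluded 0 for Resf1 (0.14 to 1.39) and Tufm (-1.55 to -0.04). It included 0 for Stard10 (-0.25 to 2.51), Comp (-0.53 to 2.53), Trim54 (-0.11 to 1.78), Dnajc4 (-1.27 to 0.08) and Eif4ebp2 (-1.44 to 0.40). In control diet 1, Stard10 (53.4 CPM) and Comp (80.1 CPM) lay above every EH301 library, and Eif4ebp2 (31.1 CPM) lay below them all. EdgeR called 0 of these genes with or without the shallow libraries.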

How the data were processed

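Read counts per gene were deposited by the authors for 3′ mRNA libraries (Lexogen QuantSeq, per the labels' protocols). Per the submitters' processing notes, Trimmomatic 0.39, STAR 2.7.0f, HTSeq 0.6.1 and the mouse build GRCm39.p6 were used; annotation and strand setting are not given in the sources used here. Reads assigned to genes were 57.5% to 61.1% of all reads in the diet libraries, 35.2% to 39.1% aligned to several places and were not counted, 1.97% to 2.50% were ambiguous and 1.43% to 1.74% fell in no gene; the latter 3 classes were left out of library sizes. A gene that shares sequence with a close copy can therefore be listed too low.

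Counts were fitted with edgeR 4.0.16 in R 4.3.3 (filterByExpr, TMM scaling, robust quasi-likelihood test), with Benjamini-Hochberg adjustment over all genes tested and a threshold of 0.05. CPM are counts over the library's reads on tested genes, scaled by its TMM factor. DESeq2 1.42.0 and limma 3.58.1 were alternatives. Only the edgeR test was tried on simulated counts. These had less spread than the diet libraries and no library with an outlying profile. Apart from the pair left out, no 2 diet libraries agreed within sampling noise (lowest chi-square per gene 5.06). In the postpartum table, WT PP 1 and 2, and S55L PP 1 and 2, were identical and were used once, leaving 18 libraries; same-numbered libraries of S55L PP and WT PP deviated together (r 0.119 to 0.333 over 4 pairs). Gene IDs matched symbols for 52073 of 56691 IDs of the diet table, which hold 99.8% of its reads.

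A panel of 31 genes was named throughout, of which 29 were tested, and no gene met the rule for called genes. A further panel gene is not reported here. Of 55 lists of 869 symbols, only some are described, by counts and medians without a test of their own. No member of the others was called. The panel, lists and comparison were chosen with earlier results of these data known. Intervals are 95% intervals from the edgeR fit.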

Additional observations from a re-analysis of the deposited data

Results flagged for a closer look

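Within the 4 libraries of a diet, 13 of 90 sets of 4 values held 1 library far from the other 3 by Dixon's ratio. Its cut is set for about 1 in 20 with independent, normally distributed values. These sets of CPM share the same libraries and include genes chosen for their lowest p, so no excess can be read from the count. Of the 13, 4 were in control diet 1 and 4 in EH301 diet 8, the 2 libraries of lowest depth. Control diet 1 stood apart for Chchd10 (1866 CPM, the other control libraries 4418 to 4683), Ddit3 (1288 CPM, others 105 to 234), Nppb (480.4 CPM, others 40.3 to 111) and Fgf21 (2.22 CPM from 1 read, others 0). EH301 diet 8 stood apart for Atf4 (2331 CPM, the other EH301 libraries 828 to 912), Ddit3 (543 CPM, others 150 to 213), Gdf15 (1873 CPM, others 620 to 814) and Zw10 (9.73 CPM, others 14.0 to 14.5).

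In the deeper libraries, EH301 diet 7 stood apart for Malat1 (2540 CPM, others 495 to 740), EH301 diet 9 for Cyp26b1 (190 CPM, others 7.45 to 19.5) and Tgfb3 (9.24 CPM, others 11.5 to 11.8), EH301 diet 10 for Myh7 (2494 CPM, others 622 to 904), and control diet 3 for Polr3a (17.3 CPM, others 19.88 to 20.02).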

How the results depend on the processing

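Of 856 values computed for the 41 named genes under 21 alternative settings, 101 changed sign, in 20 genes, and 78 of those came from settings that leave out libraries; 3 values were called, all of Pfdn6. No value that changed sign was called in either direction, and the cause of the changes was not tested. The count of genes called was 0 with DESeq2, other scaling, no filter, the outer plate row as a term, all 10 deposited columns, the shared column under either diet, and each library left out in turn (0 to 0). It was 1 with limma voom and, without the 2 shallow libraries, 9 with DESeq2 and 1 with limma voom. The settings without shallow libraries were chosen after seeing the data.

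Leaving out 1 library at a time, the log2 fold changes that changed sign ranged as follows: Chchd10 -0.097 to 0.27, Atf4 -0.58 to 0.63, Ddit3 -1.26 to 0.82, Trib3 -0.19 to 0.44, Gdf15 -0.61 to 0.50, Mthfd2 -0.34 to 0.18, Phgdh -0.19 to 0.80, Nampt -0.080 to 0.22, Sirt1 -0.087 to 0.30, Nqo1 -0.013 to 0.26, Nppa -0.23 to 0.18, Nppb -0.97 to 0.50, Postn -0.15 to 0.40, Ppargc1a -0.29 to 0.12, Pdk4 -0.45 to 0.26, Ucp3 -0.30 to 0.094, Cox7a1 -0.12 to 0.13. The mitochondrial share difference ranged from -0.73 to 5.19 percentage points. Values of opposite sign under limma voom were Chchd10 -0.13, Atf4 0.30, Ddit3 0.51, Gdf15 0.18, Mthfd2 0.069, Sirt1 -0.056, Nppb 0.26, Col1a1 -0.069, Postn -0.080, Ppargc1a 0.0015 and Cox7a1 -0.099. Without the shallow libraries they were, in edgeR, Chchd10 -0.33, Atf4 0.12, Ddit3 0.22, Mthfd2 0.038, Nmrk1 -0.026, Sirt1 -0.064, Nppb 0.16, Col1a1 -0.076, Ppargc1a 0.17 and Cox7a1 -0.21. In DESeq2 without them they were Chchd10 -0.32, Atf4 0.12, Ddit3 0.22, Mthfd2 0.039, Nmrk1 -0.021, Sirt1 -0.053, Nppb 0.16, Col1a1 -0.072, Ppargc1a 0.18 and Cox7a1 -0.21. In limma voom without them they were Chchd10 -0.24, Atf4 0.29, Ddit3 0.49, Gdf15 0.098, Mthfd2 0.25, Nmrk1 -0.026, Sirt1 -0.21, Nppb 0.0063, Col1a1 -0.26, Postn -0.16, Ppargc1a 0.11, Ucp3 0.069 and Cox7a1 -0.29. DESeq2 on all 8 libraries gave Cox7a1 -0.0021, and the outer plate row as a term gave Trib3 -0.11, Ucp3 0.040 and Cox7a1 -0.061. Cox7a1 was -0.011 with relative log expression factors, -0.0086 with total counts and -0.012 with mitochondrially encoded genes removed. With the shared column counted as control diet, the values were Nppa 0.043 and Cox7a1 -0.0034, and with it counted as EH301 diet Nampt -0.025, Sirt1 -0.12 and Sirt3 0.023. Of 902 list medians computed for 43 lists, 39 moved by more than the spread of their members.

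The share of genotype-called genes pointing toward WT was 47.2% in edgeR and 46.9% in DESeq2 without the shallow libraries, and 36.2% to 47.8% leaving out 1 library at a time. The genotype sort gave 3458 genes higher and 977 lower with total counts, and 1621 to 2077 higher and 1465 to 2069 lower leaving out 1 library at a time. With the replicate block, under which same-numbered postpartum libraries are paired, it gave 2104 higher and 2018 lower, within 1.5 times of the counts without it. No paired analysis was possible because the diet groups share no replicate number. The intervals lay within 2-fold for 67.1% of genes, and for 72.7% of the genes above 100 CPM, whose median half-width was 0.65 against 0.68 over all genes. Without the shallow libraries the median of some lists named above changed sign: NAD metabolism (-0.06), adult sarcomere (-0.03), calcium handling (0.05), cardiomyocyte (-0.05) and macrophage (-0.07), beside complexes II and III (-0.17).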
